A study of Rattus norvegicus with 12 samples.

Results

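The miRNAs miR-137 and miR-138 of rat were measured here as 5 mature strands, and none of the 5 passed the test for a difference between neurons with an shRNA against Stau2 or Pum2 and control neurons. The ratio of miR-138-5p to its partner strand miR-138-2-3p was lower in all 4 libraries with the Stau2 shRNA than in all 8 others. Such separation from both other groups, in either direction, was found in 3 of 210 strand pairs (1.43%), this pair included. The difference did not pass after adjustment in a test that could hardly do so at this sample size. A limma test over the 210 pairs, added after the values were seen, did not call it either. Its adjusted p in limma was 0.475 against control neurons and 0.390 against the Pum2 shRNA. With the replicate number as a block these were 0.265 and 0.208. The count of miR-138-5p pools 2 loci, and its ratio to the partner strand of the other locus, miR-138-1-3p, overlapped between groups. The strands were taken by name, as all entries of the count tables for miR-137 or miR-138 with any locus and arm suffix. They were rno-miR-137-3p, rno-miR-137-5p, rno-miR-138-5p, rno-miR-138-1-3p and rno-miR-138-2-3p (given below without the species prefix), which are 5 of 685 miRNA names and of 805 small RNA names in all. All 5 passed the filter on low counts, as did 628 miRNA names in total.

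The samples were primary cortical neurons of Sprague Dawley rats, prepared from embryos at day 17 and transduced with lentivirus at 10 days in vitro. RNA was collected at 14 days in vitro. Neurons labelled shStau2 received an shRNA (short hairpin RNA) against Stau2, which encodes the double-stranded RNA-binding protein Staufen2. Neurons labelled shPum2 received an shRNA against Pum2, which encodes the mRNA-binding protein Pumilio 2 and served as a second control for effects of any active shRNA. Neurons labelled shNTC received a non-targeting shRNA. Each group had 4 libraries, numbered 1 to 4 and described as biological replicates, and every library came from virus-treated neurons. The small RNA counts do not measure the mRNAs of Stau2 and Pum2, and how far either was depleted was not analysed here.

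Library totals lay between 3836349 and 5415763 counts, and a floor of 3 counts was 0.588 to 0.763 CPM (counts per 1000000 miRNA counts). The neuronal markers miR-124-3p, miR-128-3p and miR-9a-5p summed to between 260045 and 322157 CPM in all 12 libraries. By mean level this was mostly miR-9a-5p (190379 CPM), a miRNA also of neural progenitors, and miR-128-3p (91251 CPM). The mean of miR-124-3p was 5099 CPM, within the range of the astrocyte sums below. Marker sums of other cells were lower than the neuronal sum but above 0. Those of oligodendrocytes were 213 to 399 CPM and of vessels or mesenchyme 436 to 725 CPM. The 5 markers of microglia or blood summed to 85.4 to 128 CPM in shStau2, 134 to 191 CPM in shPum2 and 126 to 181 CPM in shNTC, so that shStau2 lay below all shPum2 libraries and narrowly overlapped shNTC. The 4 astrocyte markers were miR-21-5p, miR-21-3p, miR-23a-3p and miR-27a-3p. They summed to 2512 to 3897 CPM in shStau2, 3006 to 5304 CPM in shPum2 and 4372 to 7327 CPM in shNTC. The astrocyte sums of shStau2 lay below all those of shNTC and overlapped those of shPum2.

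A miRNA is cut from a hairpin precursor by Drosha and Dicer, and normally 1 strand of the resulting duplex, the guide, is retained in an Argonaute protein while the partner strand is lost. The guide pairs with mRNAs mainly through its seed, bases 2 to 8. The guide miR-138-5p is enriched in dendrites of rat hippocampal neurons, where it represses Lypla1, an enzyme that removes palmitate from proteins, and limits the size of dendritic spines. The guide miR-137-3p is enriched in brain. In mouse neurons it represses Mib1, a ubiquitin ligase needed for dendrite growth, and the presynaptic release proteins Syt1, Cplx1 and Nsf, and the human MIR137 locus carries common variants linked to schizophrenia.

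The mature strands are printed from RefSeq (assembly GRCr8), where 5 of 5 names were matched. They are shown because the seeds set the strands apart from each other and because the partner strands differ between the miR-138 loci. Capitals mark the seed, bases 2 to 8 from the 5′ end.
rno-miR-137-3p: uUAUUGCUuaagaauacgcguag
rno-miR-137-5p: aCGGGUAUucuuggguggauaa
rno-miR-138-5p: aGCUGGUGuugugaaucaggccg
rno-miR-138-1-3p: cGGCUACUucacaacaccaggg
rno-miR-138-2-3p: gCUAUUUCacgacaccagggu

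The 5 seeds were all different, and 0 of the other mature rat miRNAs in the RefSeq table, which holds 693 names, shared any of them. The closest other mature sequence to miR-137-3p or miR-137-5p was 9 edits away, and that to miR-138-5p was 8 edits away. Between the partner strands of miR-138 the distance was 5 edits. With miR-138-2-3p set 2 bases to the right of the start of miR-138-1-3p, 18 of 20 overlapping positions matched, with C7U and A13G counted from the 5′ end of miR-138-1-3p (its base first). Because of the shifted start, and of C7U within the seed, the seeds differ although the strands are close relatives. Both differences lie inside the strands, and how reads with mismatches were assigned to these 2 names is not known.

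The precursors are shown because 1 mature strand, miR-138-5p, lies in both miR-138 hairpins and its count therefore cannot be split by locus. Capitals mark the mature strands.
Mir137: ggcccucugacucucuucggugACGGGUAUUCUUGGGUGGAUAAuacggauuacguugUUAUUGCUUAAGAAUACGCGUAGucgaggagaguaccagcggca
Mir138-1: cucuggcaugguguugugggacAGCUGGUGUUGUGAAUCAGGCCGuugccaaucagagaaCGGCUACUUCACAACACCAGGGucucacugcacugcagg
Mir138-2: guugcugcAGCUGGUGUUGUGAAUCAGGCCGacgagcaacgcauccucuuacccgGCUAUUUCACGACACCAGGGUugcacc

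In GRCr8, Mir137 occupies chr2:209165709-209165810 on the plus strand, within the span of the long non-coding RNA gene LOC120100931. Mir138-1 occupies chr8:131178434-131178532 on the plus strand, within the spans of the long non-coding RNA genes LOC103690480 on the plus strand and LOC102550701 on the minus strand. Mir138-2 occupies chr19:10680133-10680214 on the minus strand, within the span of Slc12a3, the gene of a renal sodium chloride cotransporter, on the same strand. Whether the hairpins lie in introns or exons was not analysed here. The deposited counts were assigned on another build, Rnor 6.0, and carry no coordinates.

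The 5 strands together took between 1.30 and 1.65% of a library's miRNA counts. Their levels were ordered alike in all 12 libraries: miR-137-3p, miR-138-5p, miR-138-2-3p, miR-138-1-3p and then miR-137-5p. By count, miR-137-3p ranked between 14 and 17 among the miRNA names of a library, and miR-138-5p between 34 and 43. The partner strand miR-138-2-3p ranked between 101 and 119, miR-138-1-3p between 179 and 222, and miR-137-5p between 245 and 288. Levels are CPM scaled by trimmed mean of M-values (TMM), and since the mature strands have 21 to 23 bases no length correction was made. They are shares of a library, so that fewer cells of a type and less RNA per cell cannot be told apart.

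**Figure D1:**
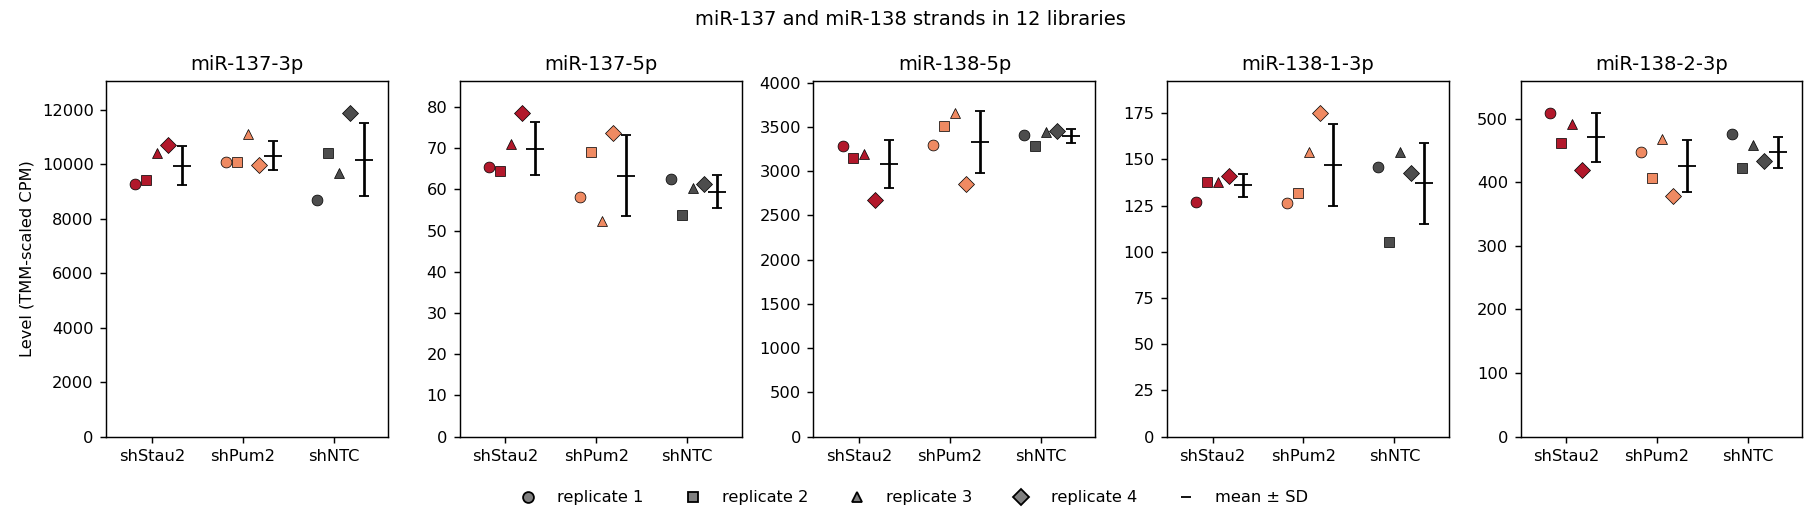
Levels of the 5 strands in TMM-scaled CPM on linear axes that start at 0 and differ between panels. Each symbol is 1 library, its shape gives the replicate number, and the bar gives the mean ± SD of 4 libraries. The groups overlap in most panels, while for miR-137-5p the shStau2 libraries sit at 64.5 to 78.4 CPM, above the shNTC libraries at 53.7 to 62.5 CPM.

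The main strand of miR-137, miR-137-3p, had overlapping levels in all groups. It measured 9278, 9421, 10400 and 10694 CPM in shStau2 replicates 1 to 4, and 10069, 10085, 11108 and 9966 CPM in shPum2. In shNTC it measured 8690, 10423, 9660 and 11867 CPM. The shNTC libraries spanned the widest range and held both the lowest and the highest value, so neither knockdown group lay outside them. The means were 9948 ± 704 CPM in shStau2, 10307 ± 537 CPM in shPum2 and 10160 ± 1341 CPM in shNTC (SD, n = 4 each). Neighbouring means differed by less than the SD of either group. At 40615 to 53487 counts per library, counting error was 0.461 to 0.479% of the group means, far below the observed coefficients of variation of 5.21 to 13.2%.

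The log2 fold change of miR-137-3p was -0.03 in shStau2 against shNTC (SE 0.09, adjusted p = 0.952), with a 95% interval of -0.22 to 0.16. In edgeR's quasi-likelihood test this interval corresponds to a level in shStau2 between 0.857 and 1.12 times that in shNTC. In shPum2 against shNTC it was 0.02 (SE 0.09, interval -0.17 to 0.21, adjusted p = 0.982), and in shStau2 against shPum2 -0.05 (SE 0.09, interval -0.24 to 0.14, adjusted p = 0.865). The sign of the first difference rested on 1 library, since without shNTC replicate 4 it was 0.05. That of shPum2 against shNTC was negative without shNTC replicate 1 (-0.05), shNTC replicate 3 (-0.003) or shPum2 replicate 3 (-0.02), and with upper-quartile scaling (-0.005).

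The partner strand miR-137-5p was present at a small fraction of the level of miR-137-3p. It measured 65.3, 64.5, 71.0 and 78.4 CPM in shStau2 replicates 1 to 4, and 58.0, 69.1, 52.3 and 73.7 CPM in shPum2. In shNTC it measured 62.5, 53.7, 60.4 and 61.3 CPM. All 4 shStau2 libraries lay above all 4 shNTC libraries, while shPum2 reached both below and above shNTC. The means were 69.8 ± 6.43 CPM in shStau2, 63.3 ± 9.84 CPM in shPum2 and 59.5 ± 3.96 CPM in shNTC (SD, n = 4 each). Neighbouring means differed by less than the larger of their SDs, while those of shStau2 and shNTC differed by more than the SD of either. With 241 to 341 counts per library, counting error alone was 5.72 to 5.99% of a group mean, beside observed coefficients of variation of 9.22% in shStau2, 15.6% in shPum2 and 6.66% in shNTC.

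In shStau2 against shNTC the log2 fold change of miR-137-5p was 0.23 (SE 0.13, interval -0.04 to 0.50), the largest of the 5 strands. It did not pass the test (adjusted p = 0.516 in edgeR, unadjusted p = 0.0903). It was higher in 4 of 4 pairs of the same replicate number, which follows from groups that do not overlap. With the replicate number as a block its adjusted p was 0.195 (unadjusted p = 0.0405). Without shStau2 replicate 4, the highest library, it was 0.17 (adjusted p = 0.821). In shPum2 against shNTC it was 0.09 (SE 0.13, adjusted p = 0.982), and shStau2 against shPum2 gave 0.14 (SE 0.13, adjusted p = 0.703). Single libraries moved both values: without 1 library they ranged from 0.004 (without shPum2 replicate 4) to 0.17 (without shPum2 replicate 3) in shPum2 against shNTC, and from 0.06 (without shPum2 replicate 3) to 0.22 (without shPum2 replicate 4) in shStau2 against shPum2.

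The guide miR-138-5p measured 3286.7, 3151, 3192 and 2676 CPM in shStau2 replicates 1 to 4, and 3299, 3506, 3653 and 2850 CPM in shPum2. In shNTC it measured 3407, 3286.9, 3439 and 3454 CPM. The shStau2 libraries lay below all shNTC libraries, but the nearest pair was 3286.7 in shStau2 and 3286.9 CPM in shNTC. As an unscaled share of the miRNA counts the groups overlapped, at 0.260 to 0.328% in shStau2 and 0.326 to 0.357% in shNTC. Replicate 4 was the lowest library in both shStau2 and shPum2, but the highest in shNTC. The means were 3076 ± 273 CPM in shStau2, 3327 ± 350 CPM in shPum2 and 3397 ± 75.7 CPM in shNTC (SD, n = 4 each). Neighbouring means were less than the larger SD apart, while those of shStau2 and shNTC differed by more than the SD of either.

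In shStau2 against shNTC the log2 fold change of miR-138-5p was -0.14 (SE 0.09, interval -0.33 to 0.04), with a level between 0.795 and 1.03 times that in shNTC. It did not pass (adjusted p = 0.585 in edgeR, unadjusted p = 0.126). It stood lower in 4 of 4 pairs, which follows from groups that do not overlap. Without shStau2 replicate 4 the difference was -0.09 (adjusted p = 0.886). With the replicate block it was -0.15 (adjusted p = 0.221, unadjusted p = 0.0497). In shPum2 against shNTC it was -0.03 (SE 0.09, adjusted p = 0.982), or 0.03 without shPum2 replicate 4. In shStau2 against shPum2 it was -0.11 (SE 0.09, adjusted p = 0.672), again lower in 4 of 4 pairs, with groups that overlapped. It was -0.05 without shStau2 replicate 4 and -0.18 without shPum2 replicate 4.

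The partner strands of miR-138 are named by locus, although how reads with mismatches were assigned to the 2 names is not known. The strand of the chromosome 8 locus, miR-138-1-3p, measured 127, 138, 138 and 141 CPM in shStau2 replicates 1 to 4, and 126, 132, 154 and 175 CPM in shPum2. In shNTC it measured 146, 105, 154 and 143 CPM. No group stood apart, and shNTC replicate 2 was the lowest library of all. The means were 136 ± 6.12 CPM in shStau2, 147 ± 22.2 CPM in shPum2 and 137 ± 21.7 CPM in shNTC (SD, n = 4 each). The log2 fold change was -0.01 in shStau2 against shNTC (SE 0.13, interval -0.30 to 0.27, adjusted p = 0.984), 0.10 in shPum2 against shNTC (SE 0.13, adjusted p = 0.982) and -0.11 in shStau2 against shPum2 (SE 0.13, adjusted p = 0.827). The first of these was 0.009 with upper-quartile scaling and 0.005 in a fit of 8 libraries, and without shNTC replicate 1, 3 or 4 or shStau2 replicate 1 it was 0.02, 0.05, 0.007 and 0.02. Without 1 library the others ranged from 0.003 (without shPum2 replicate 4) to 0.18 (without shPum2 replicate 1) in shPum2 against shNTC, and from -0.20 (without shPum2 replicate 1) to -0.02 (without shPum2 replicate 4) in shStau2 against shPum2.

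The strand of the chromosome 19 locus, miR-138-2-3p, was the more abundant. It measured 508, 463, 492 and 420 CPM in shStau2 replicates 1 to 4, and 448, 406, 469 and 378 CPM in shPum2. In shNTC it measured 475, 422, 458 and 433 CPM. The libraries ordered by replicate number more than by group: numbers 1 and 3 lay above the group mean and numbers 2 and 4 below it in all 3 groups. The means were 471 ± 39.0 CPM in shStau2, 425 ± 40.7 CPM in shPum2 and 447 ± 24.0 CPM in shNTC (SD, n = 4 each). In the order shStau2, shNTC, shPum2, neighbouring means differed by less than the SD of either group. Those of shStau2 and shPum2 differed by more than the SD of either.

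The log2 fold change of miR-138-2-3p was 0.07 in shStau2 against shNTC (SE 0.10, interval -0.14 to 0.28, adjusted p = 0.856). In shPum2 against shNTC it was -0.07 (SE 0.10, adjusted p = 0.982). In shStau2 against shPum2 it was 0.15 (SE 0.10, interval -0.06 to 0.36, adjusted p = 0.657), higher in 4 of 4 pairs. Without 1 library these ranged from 0.03 (without shStau2 replicate 1) to 0.12 (without shStau2 replicate 4), from -0.12 (without shPum2 replicate 3) to -0.02 (without shPum2 replicate 4), and from 0.09 (without shPum2 replicate 4) to 0.20 (without shPum2 replicate 3). The guide miR-138-5p and this partner strand had differences of opposite sign in shStau2 against either control, neither past the threshold.

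**Figure D2:**
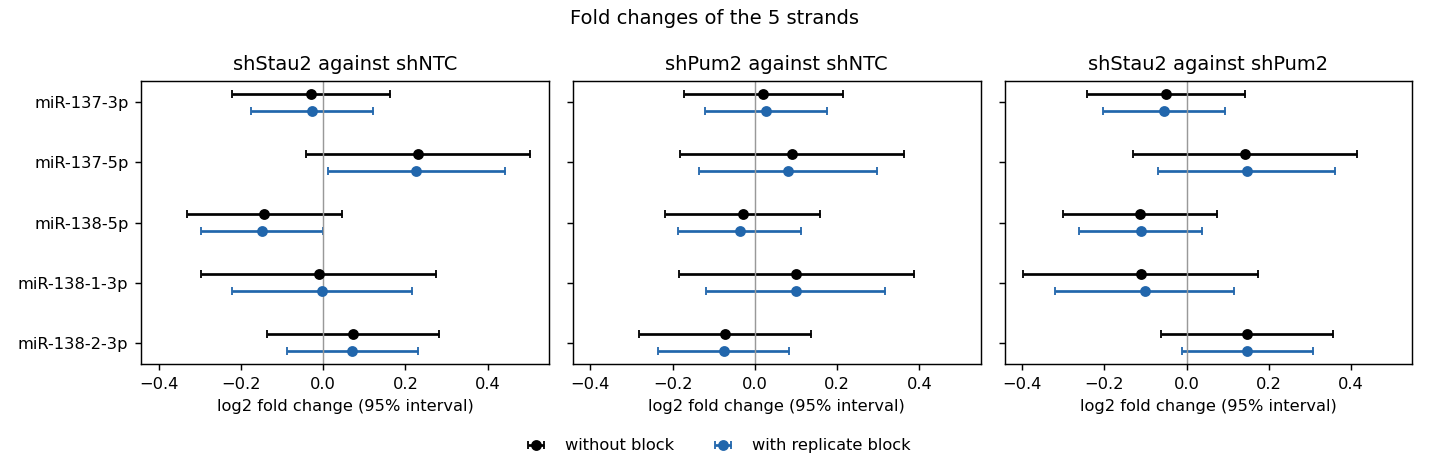
Log2 fold changes of the 5 strands in 3 comparisons, with 95% intervals from edgeR's fit of all 12 libraries, without a block (black) and with the replicate number as a block (blue). A positive value means higher in the group named first. Without the block every interval includes 0, and with it those of miR-137-5p and miR-138-5p in shStau2 against shNTC do not, at adjusted p = 0.195 and 0.221.

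Among the 5 strands 0 were called in any comparison by edgeR, with or without the replicate block, and 0 by DESeq2. In shStau2 against shNTC 0.318% of the 628 miRNAs tested were called, all lower, or 6.21% with the block (2.39% higher and 3.82% lower). In shPum2 against shNTC it was 0%, with 0 called by DESeq2, or 0.159% with the block. In shStau2 against shPum2 it was 0.478%, all lower, or 3.98% with the block (1.59% higher and 2.39% lower). The miRNAs called without the block, named after their values were seen, were miR-29a-5p and miR-29b-3p in shStau2 against either control and miR-495 against shPum2, and with the block miR-23a-3p in shPum2 against shNTC.

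At an unadjusted p under 0.05, 0 of the 5 strands were found in any comparison without the block, by edgeR or DESeq2. The share over all miRNAs in edgeR was 11.3% in shStau2 against shNTC, 1.43% in shPum2 against shNTC and 9.39% in shStau2 against shPum2. With the block 2 of the 5 were found in shStau2 against shNTC, miR-137-5p and miR-138-5p, where the share over all miRNAs was 22.5%. With the block 0 of the 5 were found in shPum2 against shNTC, beside 7.32% of all, and 0 in shStau2 against shPum2, beside 19.7%.

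Groups that did not overlap in shStau2 against shNTC were found for 5.25% of miRNAs on the lower side, miR-138-5p among them, and for 4.3% on the higher side, miR-137-5p among them. None of the 5 strands had such groups in shPum2 against shNTC, where the shares were 0.796% lower and 0.318% higher, or in shStau2 against shPum2, where they were 2.71% lower and 2.23% higher. The astrocyte marker sums given above separated the same libraries, and their part in these differences was not tested. They include miR-23a-3p, itself called with the block in shPum2 against shNTC. Whether the sums reflect fewer astrocytes or lower levels of these miRNAs was not tested. The median absolute log2 fold change of the 5 strands in shStau2 against shNTC was 0.07, beside 0.14 over all 628. Their median SE was also smaller, at 0.10 beside 0.17, so the smaller folds do not show that the strands changed less than other miRNAs.

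**Figure D3:**
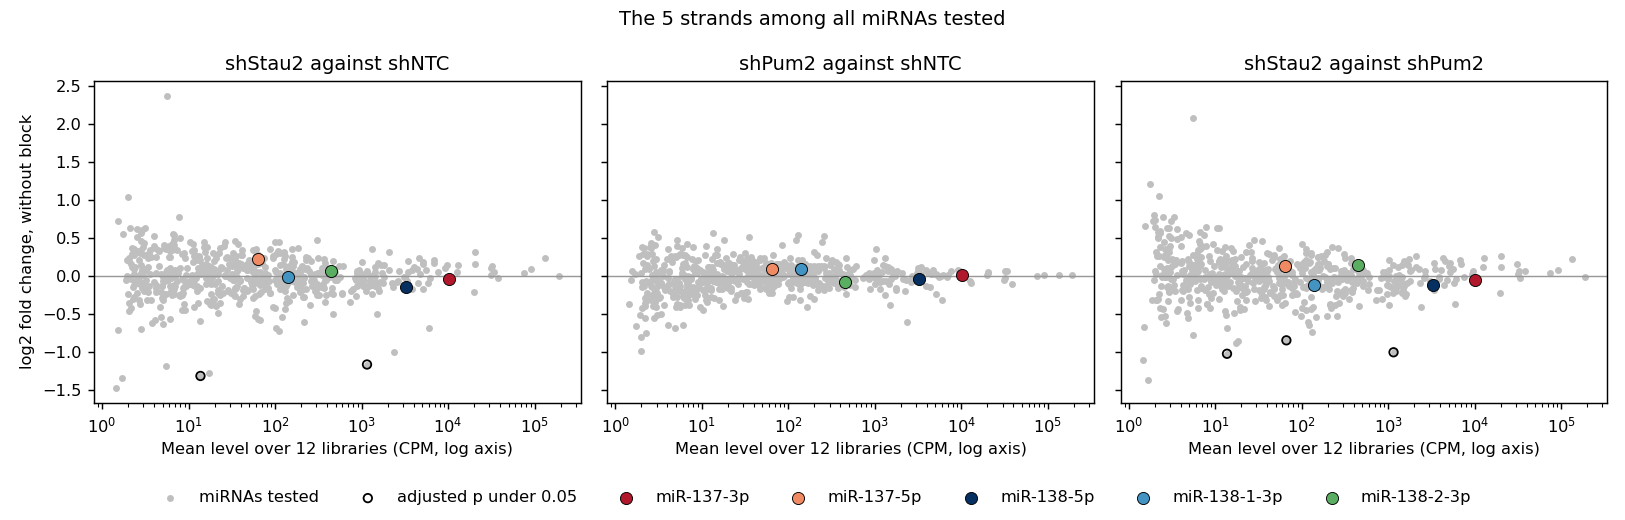
Log2 fold change without the block against the mean level over 12 libraries (log axis) for the 628 miRNAs tested, with the 5 strands in colour and calls at an adjusted p under 0.05 circled. The strands lie within the band of other miRNAs of like level, and none of the calls, 2 in shStau2 against shNTC and 3 in shStau2 against shPum2, is one of them.

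Ratios of strands within a library do not depend on scaling factors, and 5 were set between groups in 3 comparisons, with exact two-sided permutation tests adjusted over the 15 tests. With 4 libraries against 4 the smallest possible p is 0.0286, so that the adjusted threshold could be passed only if most of the 15 tests reached it. The ratio that stood apart was that of the guide miR-138-5p, whose count pools both loci, to the chromosome 19 partner miR-138-2-3p. It was 6.46, 6.81, 6.48 and 6.38 in shStau2 replicates 1 to 4, and 7.36, 8.63, 7.79 and 7.53 in shPum2. In shNTC it was 7.17, 7.79, 7.50 and 7.97. All 4 shStau2 libraries lay below all 8 control libraries, while shPum2 and shNTC overlapped.

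The mean ratio of miR-138-5p to miR-138-2-3p was 6.53 ± 0.191 in shStau2, 7.83 ± 0.561 in shPum2 and 7.61 ± 0.350 in shNTC (SD, n = 4 each). On the log2 scale shStau2 differed by -0.22 from shNTC and by -0.26 from shPum2, each with an exact permutation p of 0.0286, the smallest possible. Neither passed after adjustment (adjusted p = 0.214 for each in the exact permutation test), and shPum2 against shNTC gave 0.04 (exact permutation p = 0.543). Both of these comparisons use the same shStau2 libraries. The marker sums of microglia or blood separated shStau2 from shPum2, and those of astrocytes shStau2 from shNTC, and their part in the ratio was not tested. Without any 1 library the difference was -0.25 to -0.20 against shNTC and -0.29 to -0.21 against shPum2. Its sign could not change there, because the groups do not overlap.

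A further test of the ratio was added after these values were seen, with limma on the log2 ratio of the 5p to the 3p strand of 210 strand pairs. The interval of the difference was -0.43 to -0.003 in shStau2 against shNTC (SE 0.10, adjusted p = 0.475 in limma) and -0.47 to -0.04 in shStau2 against shPum2 (SE 0.10, adjusted p = 0.390). With the replicate block the adjusted p in limma was 0.265 against shNTC and 0.208 against shPum2. In limma 0 of 210 pairs were called without the block in shStau2 against shNTC, with 21 at an unadjusted p under 0.05, and 0 in shStau2 against shPum2, with 24. With the block it called 0.476% of the pairs in shStau2 against shNTC, which is 1 pair, that of miR-23a (named after its value was seen), and 0 in shStau2 against shPum2, with 35 at an unadjusted p under 0.05. Ratios whose groups did not overlap made up 5.71% of the pairs in shStau2 against shNTC, 2.86% in shPum2 against shNTC and 4.29% in shStau2 against shPum2. In 3 of the 210 pairs, 1.43%, shStau2 stood apart from both controls, and the other 2 were those of miR-543 and miR-99b, named here after their values were seen.

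**Figure D4:**
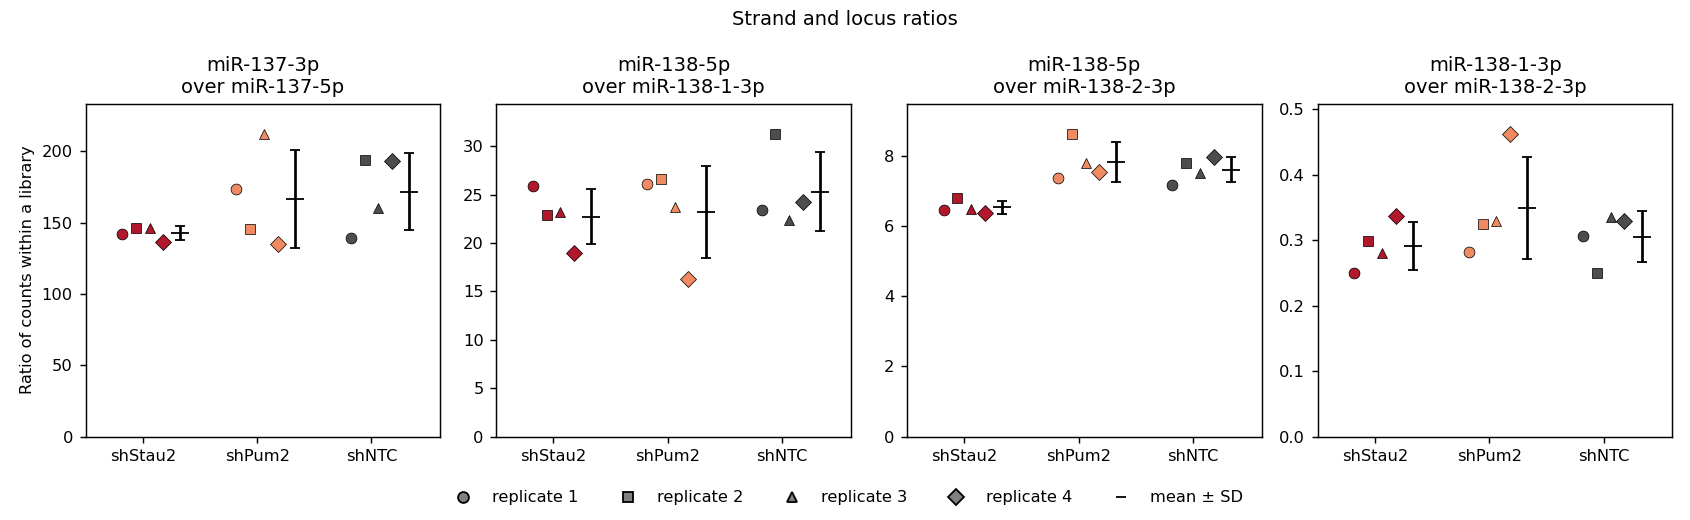
Ratios of counts within each library on linear axes that start at 0, 1 symbol per library with its shape for the replicate number and bars for mean ± SD of 4 libraries. For miR-138-5p over miR-138-2-3p the shStau2 libraries sit at 6.38 to 6.81, below the shPum2 libraries at 7.36 to 8.63 and the shNTC libraries at 7.17 to 7.97, while the groups overlap in the other panels.

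The other ratios overlapped between groups. That of miR-137-3p to miR-137-5p was 143 ± 4.72 in shStau2, 167 ± 34.4 in shPum2 and 172 ± 27.0 in shNTC (SD, n = 4 each). Its difference in shStau2 against shNTC was -0.25 on the log2 scale (exact permutation p = 0.114, adjusted p = 0.571). The shStau2 libraries lay close together at 136 to 146, inside the shPum2 range of 135 to 212. In every library miR-137-3p took 99.3 to 99.5% of the miR-137 counts.

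The ratio of miR-138-5p to the chromosome 8 partner miR-138-1-3p was 22.7 ± 2.84 in shStau2, 23.2 ± 4.74 in shPum2 and 25.3 ± 4.06 in shNTC (SD, n = 4 each). Its difference in shStau2 against shNTC was -0.15 on the log2 scale (exact permutation p = 0.4, adjusted p = 0.786), and the groups overlapped. The guide miR-138-5p made up 82.7 to 84.0% of the miR-138 counts in shStau2, 83.7 to 86.7% in shPum2 and 84.6 to 86.2% in shNTC. The shStau2 shares lay below all shNTC shares and overlapped those of shPum2.

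Between the partner strands named by locus, miR-138-1-3p over miR-138-2-3p was 0.291 ± 0.0361 in shStau2, 0.350 ± 0.0780 in shPum2 and 0.305 ± 0.0396 in shNTC (SD, n = 4 each). The chromosome 19 partner held 74.8 to 80.0% of the partner strand counts in shStau2, 68.4 to 78.0% in shPum2 and 74.8 to 80.1% in shNTC. The exact permutation p was 0.629 in shStau2 against shNTC, 0.457 in shPum2 against shNTC and 0.257 in shStau2 against shPum2 (adjusted p = 0.786 for each). The guides stood to each other, miR-137-3p over miR-138-5p, at 3.27 ± 0.519 in shStau2, 3.12 ± 0.266 in shPum2 and 2.99 ± 0.391 in shNTC (exact permutation p = 0.429, 0.714 and 0.629 in shStau2 against shNTC, shStau2 against shPum2 and shPum2 against shNTC; SD, n = 4 each).

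The miRNAs whose levels most resembled those of the guides over the 12 libraries were found by Pearson's r of log2 CPM among 447 other miRNAs with a mean of at least 10 CPM. For miR-137-3p they were miR-708-3p (r = 0.88), miR-17-1-3p (0.83), miR-411-5p (0.83), miR-376b-3p (0.77) and miR-300-3p (0.77). For miR-138-5p they were miR-337-3p (r = 0.89), miR-19b-3p (0.88), miR-19a-3p (0.87), miR-380-5p (0.85) and miR-532-5p (0.81). Between the 2 guides r was 0.03, and between miR-138-5p and miR-137-5p it was -0.74, among the lowest of the 447 (-0.64 for deviations from the group means). Libraries of the same replicate number share much of their variation, and this enters each r.

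Among the partner strands only miR-138-2-3p had a positive r with its guide, and the strands also differed in counting error. Counting error was 5.72 to 5.99% of a group mean for miR-137-5p, 3.90 to 4.10% for miR-138-1-3p and 2.18 to 2.30% for miR-138-2-3p. Its part in the values of r below was not tested. Between miR-137-3p and miR-137-5p r was -0.13 over the 12 libraries, and -0.08 for deviations from the group means. Between miR-138-5p and miR-138-1-3p it was -0.17, and -0.25 for deviations. Between miR-138-5p and miR-138-2-3p it was 0.40 for the levels, and 0.80 for deviations from the group means, the ninth highest of the 447. On that scale the closest to miR-138-5p were miR-19b-3p (0.91), miR-335 (0.88), miR-34a-5p (0.86), miR-337-3p (0.86) and miR-210-3p (0.84). The closest to miR-137-3p were miR-708-3p (0.93), miR-17-1-3p (0.90), miR-300-3p (0.87), miR-411-5p (0.83) and miR-181c-3p (0.78).

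Of 26 other miRNAs known from synapses, dendrites or neurons in general, all were tested, 6 were more abundant than miR-137-3p, and 10 more abundant than miR-138-5p. The most abundant were miR-9a-5p, a miRNA of neural progenitors and neurons, miR-125b-5p, a relative of worm lin-4 found in dendrites, miR-128-3p, which accumulates as neurons mature, and miR-9a-3p. In edgeR without a block 0 of the 26 were called in shStau2 against shNTC, with 4 at an unadjusted p under 0.05, beside 11.3% of all miRNAs tested. There DESeq2 called 1 of the 26, miR-125a-5p, beside 18 of all 628. For shPum2 against shNTC edgeR called 0, with 0 at an unadjusted p under 0.05, beside 1.43% of all, and DESeq2 called 0. For shStau2 against shPum2 edgeR called 0, with 5 at an unadjusted p under 0.05, beside 9.39% of all. There DESeq2 called 0 of the 26, beside 7 of all 628. The median log2 fold change of the list was 0.03 in shStau2 against shNTC, beside 0.003 over all miRNAs, 0.009 in shPum2 against shNTC, beside 0.002, and 0.08 in shStau2 against shPum2, beside 0.005.

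With the replicate block 2 of the 26 rose in shStau2 against either control and 0 fell, and they were miR-125a-5p and miR-125b-5p. Of all miRNAs tested 2.39% rose against shNTC and 1.59% against shPum2 in the same fit. The level of miR-125a-5p was 23236 ± 1181 CPM in shStau2, 19288 ± 691 CPM in shPum2 and 18594 ± 1450 CPM in shNTC (SD, n = 4 each). Its log2 fold change with the block was 0.32 against shNTC (SE 0.06, adjusted p = 0.0038 in edgeR) and 0.27 against shPum2 (SE 0.06, adjusted p = 0.0197), while without the block the adjusted p was 0.0772 and 0.159. The level of miR-125b-5p was 147805 ± 7667 CPM in shStau2, 125853 ± 9396 CPM in shPum2 and 124763 ± 10753 CPM in shNTC (SD, n = 4 each). Its log2 fold change with the block was 0.25 against shNTC (SE 0.06, adjusted p = 0.0147 in edgeR) and 0.23 against shPum2 (SE 0.06, adjusted p = 0.0292), while without the block the adjusted p was 0.205 and 0.379. Some list members, such as miR-124-3p, miR-128-3p and miR-9a-5p, are also the neuronal markers given above. In shPum2 against shNTC the block called 0 of the 26, with 3 at an unadjusted p under 0.05, beside 7.32% of all.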

How the data were processed

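Small RNA libraries of 12 samples were deposited as whole-number counts per small RNA name, not normalised, with 1 table per library. Per the labels' protocols the kit adds unique molecular identifiers. The submitters' processing notes name the build Rnor 6.0. The aligner and counter, and whether molecules or reads were counted, are not given in the sources used here. Poisson errors and the floor of 3 counts cover counting error only. Library totals were 3836349 to 5415763 counts.

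The 685 miRNA names, 7 of them combined names, entered edgeR 4.0.16 (R 4.3.3), with TMM scaling, filterByExpr by group, and robust quasi-likelihood tests in a joint fit of 12 libraries. P-values were two-sided and Benjamini-Hochberg adjusted over 628 names (threshold 0.05). The 120 piRNA names were not analysed here. Ratios had 0.5 added to each count on the log2 scale and were compared by exact permutation in scipy 1.17.1. A limma 3.58.1 test of all strand pairs was added after seeing the data, and DESeq2 1.42.0 was an alternative. The edgeR and limma steps were tested on simulated data.

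Members and lists were chosen with earlier results of these data known. P-values measure the spread between libraries that the labels call biological replicates. The miRNAs named were the 5 members, the 5 most like each guide, and from the synapse list the 4 most abundant and those called. Libraries of the same number deviated together across miRNAs: r was 0.36 to 0.57 for 12 pairs from different groups with 1 number, and -0.41 to 0.14 for the other 36. The numbers therefore pair the libraries by the data, while the labels do not say what they stand for.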

Additional observations from a re-analysis of the deposited data

Results flagged for a closer look

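In 1 of 30 groups of 4 libraries examined for a library far from the others, the gap exceeded the 95% limit of Dixon's test. Chance gives about 1 such group in 20. It was miR-137-3p in shPum2 replicate 3, at 11108 CPM, above the other shPum2 libraries at 9966 to 10085 CPM (gap over range 0.896, limit 0.829). Without that library the log2 fold change of miR-137-3p in shPum2 against shNTC was -0.02, beside 0.02 with it, and neither was past the threshold.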

How the results depend on the processing

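None of the 15 fold changes of the 5 strands was called under any of the 19 alternatives (lowest adjusted p = 0.195, with the replicate block), and 11 of 15 had the same sign in all of them. None of the 15 ratio differences was called under its alternatives (lowest adjusted p = 0.208, in limma with the block), and 8 of 15 kept their sign. The other 7 lay between -0.14 and 0.06 as reported and changed sign without 1 library. The exact test of the ratios with the replicate block, over 4 pairs, or without 1 library of a compared group cannot pass the adjusted threshold and says nothing on stability. For the counts of miRNAs called over all 628, the replicate block gave 39 in shStau2 against shNTC, beside 2 without it, 1 in shPum2 against shNTC, beside 0, and 25 in shStau2 against shPum2, beside 3. DESeq2 called 18 and 7 in the shStau2 comparisons with shNTC and shPum2. Upper-quartile factors and a fit of 8 libraries left 0 in shStau2 against shPum2. Leaving out 1 library gave 1 to 3 in shStau2 against shNTC, 0 in shPum2 against shNTC, and 0 to 4 in shStau2 against shPum2. The cause of these shifts was not tested. Under the scalings tried, the median log2 fold change over all miRNAs lay between -0.06 and 0.04, beside 0.002 to 0.005 as reported. Depth limits miR-137-5p, whose 241 to 341 counts per library give a counting error of 5.72 to 5.99% of a group mean.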
